A study of Mus musculus with 8 samples.

Results

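The enzymes of serine synthesis and folate one-carbon metabolism were followed by name in a comparison of PMCA4 knockout and wild-type smooth muscle cells. The genes listed were Phgdh, Psat1, Psph, Shmt1, Shmt2, Mthfd1, Mthfd1l, Mthfd2 and Aldh1l2, and all probes annotated to them were taken from the array. Of 25697 probes, 10 carried 1 of these names, and they covered 8 of the 9 genes. Mthfd1l was not analysed here, since none of the annotated probes carries its name.

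The cells were primary vascular smooth muscle cells from the carotid artery of male mice of the C57bl6 background. There were 2 groups of 4 arrays, PMCA4 knockout and PMCA4 wild type. PMCA4, encoded by Atp2b4, is a plasma membrane pump that exports calcium. Both genotypes were treated alike: serum synchronisation came first, then serum together with the mitogen PDGF-BB, and cells in early G1 were collected by a sort on Hoechst staining of DNA. Each of the 8 samples has 1 Illumina bead array. The labels do not give the age of the mice, the deleted part of Atp2b4, the number of mice or cultures behind the arrays, or slides and scan days. P-values therefore measure the spread between these samples only, which may be technical.

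Serine is made from the glycolytic intermediate phosphoglycerate in 3 steps, by the dehydrogenase Phgdh, the aminotransferase Psat1 and the phosphatase Psph. The serine hydroxymethyltransferases Shmt1 in the cytosol and Shmt2 in mitochondria then split serine into glycine and a carbon unit carried by tetrahydrofolate. Mthfd1 in the cytosol, and Mthfd2 and Mthfd1l in mitochondria, interconvert and release these folate-bound units, and Aldh1l2 oxidises mitochondrial formyltetrahydrofolate to carbon dioxide with formation of NADPH. The units are used for purines, thymidylate and methionine, so the pathway is known for its activity in proliferating cells.

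The members lie on several chromosomes and are not neighbours as a group. In GRCm38.p6, Psat1 spans chr19:15905123-15925059, Mthfd1 chr12:76254406-76319820, Shmt1 chr11:60788897-60811265, Phgdh chr3:98313171-98339969, Mthfd2 chr6:83305704-83326011 and Psph chr5:129765558-129787443. Shmt2 (chr10:127517123-127522444), Aldh1l2 (chr10:83487447-83534146) and Mthfd1l (chr10:3972892-4167081) share a chromosome. Which exon or untranslated region each probe matches was not determined. RefSeq promoter windows of GRCm38.p6, from 250 bases before to 50 after a start site, matched 8 of the 9 members, all but Aldh1l2, with 9 windows in all. For the 2 genes with the largest changes and the gene with the smallest, a window that holds CCAAT is shown. CCAAT is the core of the site that the factor NF-Y binds. The Shmt2 window is shown as one without it. A second Psat1 window, chr19:15924573-15924872, has 0 matches and is not shown. Capitals mark CCAAT or its reverse complement, and each sequence runs along the strand of its gene.
Psat1, chr19:15925010-15925309, minus strand: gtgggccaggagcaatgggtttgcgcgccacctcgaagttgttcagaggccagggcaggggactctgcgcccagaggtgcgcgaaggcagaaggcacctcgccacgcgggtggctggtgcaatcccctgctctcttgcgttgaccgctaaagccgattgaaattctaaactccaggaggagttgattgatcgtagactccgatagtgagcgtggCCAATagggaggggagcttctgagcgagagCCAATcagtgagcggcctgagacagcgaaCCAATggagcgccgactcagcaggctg
Mthfd1, chr12:76254982-76255281, plus strand: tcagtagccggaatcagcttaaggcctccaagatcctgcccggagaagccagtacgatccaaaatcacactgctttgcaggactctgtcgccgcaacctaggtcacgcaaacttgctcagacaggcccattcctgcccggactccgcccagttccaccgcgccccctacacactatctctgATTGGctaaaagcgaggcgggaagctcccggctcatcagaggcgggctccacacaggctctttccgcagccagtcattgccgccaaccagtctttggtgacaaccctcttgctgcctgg
Phgdh, chr3:98339920-98340219, minus strand: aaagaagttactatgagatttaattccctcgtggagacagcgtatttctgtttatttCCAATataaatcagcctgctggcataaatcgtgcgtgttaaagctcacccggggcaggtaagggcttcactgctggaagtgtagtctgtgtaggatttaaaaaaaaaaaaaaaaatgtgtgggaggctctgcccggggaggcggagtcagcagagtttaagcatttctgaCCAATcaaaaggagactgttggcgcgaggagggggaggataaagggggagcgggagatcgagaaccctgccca
Shmt2, chr10:127522395-127522694, minus strand: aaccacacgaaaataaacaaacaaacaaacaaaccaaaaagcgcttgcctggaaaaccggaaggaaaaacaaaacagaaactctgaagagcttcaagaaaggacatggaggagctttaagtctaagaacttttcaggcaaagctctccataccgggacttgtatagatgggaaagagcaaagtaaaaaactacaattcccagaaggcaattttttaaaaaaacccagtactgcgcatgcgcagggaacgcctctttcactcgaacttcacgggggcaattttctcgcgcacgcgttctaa

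The Psat1 window shown holds 3 CCAAT matches and the other Psat1 window 0, while Phgdh holds 2, Mthfd1 1 and Shmt2 0. Across the members 6 of the 9 windows, which include 2 for Psat1, held a match on either strand, against 37.4% of 32851 windows. The GC box GGGCGG was found in 5 of the 9 windows, against 35.7%. The E-box CACGTG and the ATF4-type element TGATGNAA were found in 0 of the 9 windows, against 7.15% and 3.97%. Of related forms, TGATGCAA was found in 0 windows, against 0.895%. TGATGNNA and TTGCNNCA were each found in 1, against 14.5% and 11.4%, and the shorter ATTGC in 5, against 26.4%. The antioxidant form TGANNNNGC was found in 6 of the 9 windows, as many as CCAAT, against 41.3%. TGACG was found in 3, against 20.8%, and TGCGCA in 2, against 7.76%. TTTCCCGC, TTTGGCGC, TTTCGCGC and TGACGTCA were found in 0, against 1.07%, 0.514%, 0.323% and 1.79%. These are descriptions of letters in short windows, chosen after the expression values were known. In all, 15 patterns were searched.

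Between 11697 and 11987 probes per array were detected, that is, had a detection p under 0.05. Precision is limited by having 4 arrays of each genotype. The targeted gene did not separate the groups: the only Atp2b4 probe above background averaged 6.95 ± 0.27 in knockout and 6.89 ± 0.14 in wild type on the log2 scale (SD, n = 4 each), and the labels do not say whether it lies in the deleted part, so directions rest on the labels of the arrays. Of the smooth muscle markers, Acta2 and Tagln were detected on all arrays of both genotypes, Myh11 on the 4 knockout arrays only, and Cnn1 on none. In total, 56.3% of the 12040 probes tested differed between the genotypes at an adjusted p under 0.05.

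Of the serine synthesis enzymes Psat1 was lower in the knockout, and of the folate one-carbon enzymes all 5 that were measured. Psat1, Mthfd1, Shmt1, Shmt2, Aldh1l2 and Mthfd2 fell, by 1.82-fold for Psat1, 1.65-fold for Mthfd1, 1.55-fold for Shmt1, 1.52-fold for Shmt2, 1.27-fold for Aldh1l2 and 1.18-fold for Mthfd2 at the brightest probe of each. Phgdh was 1.12-fold lower and did not pass, and Psph was not above background on any array. Of the 9 member probes tested, 7 were lower and 0 higher in knockout, against 30.0% lower and 26.3% higher among all 12040 tested probes. Counted as genes, 6 of the 7 tested were lower, against 30.7% of 8302 genes, and their median log2 change was -0.60, against -0.02 over all genes tested. Shmt1 passed the filter on low values through its wild-type arrays, which favours a call in that direction, and among the 6 member genes detected on all 8 arrays 5 were lower. All 4 knockout arrays lay below all 4 wild-type arrays at 8 of the 9 member probes, against 27.9% of all tested probes. Changes are knockout minus wild type on log2 normalized intensities, with limma and Benjamini-Hochberg adjustment over all probes tested.

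**Figure D1:**
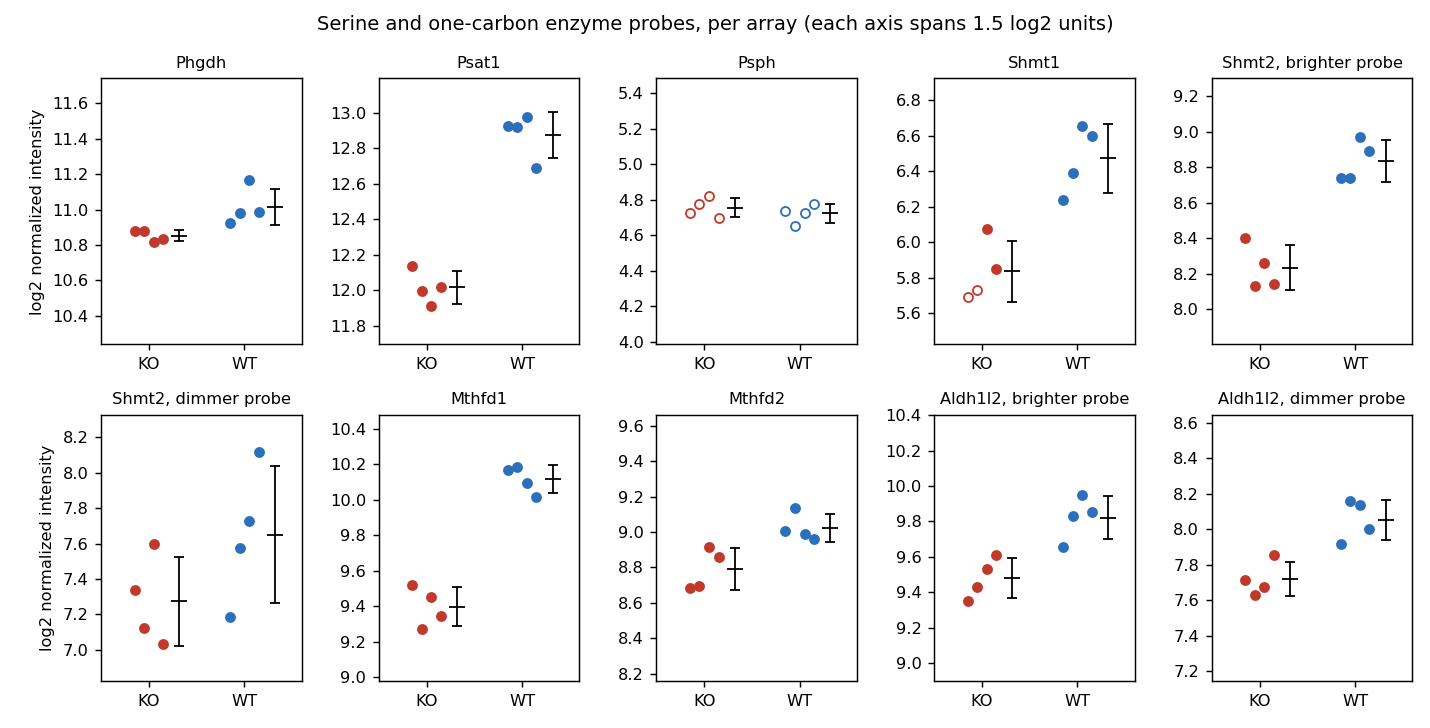
Each panel plots the log2 normalized intensity of 1 member probe on the 4 knockout (KO, red) and 4 wild-type (WT, blue) arrays, with the mean and SD as a bar beside each group. Filled points are arrays on which the probe was detected and open points are not. The vertical axes start at different levels and each spans 1.5 log2 units. The knockout points lie below all wild-type points in 8 panels, and overlap them for Psph and for the dimmer Shmt2 probe.

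Of the 3 enzymes that make serine, Psat1 fell, Phgdh did not pass and Psph could not be read. Psat1, the phosphoserine aminotransferase of the middle step, gave log2 values of 12.14, 12.00, 11.91 and 12.02 in knockout, against 12.92, 12.92, 12.98 and 12.69 in wild type. The groups did not overlap, and the gap between the highest knockout and the lowest wild-type array was 0.55. The log2 change was -0.86 with a standard error of 0.08 (95% confidence interval from -1.04 to -0.68, limma adjusted p = 9.07e-06). It ranged from -0.93 to -0.83 over 19 alternatives of the processing and passed in each. Of all genes tested, 6.65% had a lower log2 change than Psat1.

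Phgdh, which commits phosphoglycerate to serine, gave 10.88, 10.88, 10.82 and 10.83 in knockout, against 10.92, 10.98, 11.16 and 10.99 in wild type. The 4 knockout arrays were below the 4 wild-type arrays, by 0.04 at the nearest pair. The log2 change of -0.16 (standard error 0.07) missed the threshold in the limma fit, with an adjusted p of 0.0595. Over 19 alternatives it ranged from -0.19 to -0.11 and missed in 14, with a limma adjusted p of up to 0.145. It passed without wild-type replicate 1 (adjusted p = 0.0392), with a detection p under 0.01 as the filter (0.0496) and with an intensity trend and robust spread (0.0238). It also passed with array weights (0.0498) and with probes averaged per gene (0.0495). Psph, the phosphatase of the last step, was detected on 0 of the 8 arrays. Its values were 4.73, 4.78, 4.82 and 4.69 in knockout, against 4.74, 4.65, 4.73 and 4.78 in wild type. These values carry no level, and no fold is given.

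The cytosolic and mitochondrial hydroxymethyltransferases were both lower. Shmt1 gave 5.69, 5.73, 6.08 and 5.85 in knockout, against 6.24, 6.39, 6.66 and 6.60 in wild type, with no overlap. The probe was dim, being detected on 2 of 4 knockout and 4 of 4 wild-type arrays, so its wild-type arrays alone carried it past the filter and its p and fold are favoured by that filter. The log2 change was -0.64 (standard error 0.11, limma adjusted p = 0.000859), and it ranged from -0.86 to -0.43 over 18 alternatives, passing in each.

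Shmt2 had 2 probes. The brighter gave 8.40, 8.13, 8.26 and 8.14 in knockout, against 8.74, 8.74, 8.97 and 8.89 in wild type, with no overlap and a log2 change of -0.60 (standard error 0.08, limma adjusted p = 0.000171). The dimmer gave 7.34, 7.12, 7.60 and 7.03 in knockout, against 7.18, 7.57, 7.73 and 8.12 in wild type. At this probe the groups overlapped, since the lowest wild-type array, replicate 1, lay below 2 of the knockout arrays. Its log2 change was -0.38 (95% confidence interval from -0.79 to 0.04, limma adjusted p = 0.114). Without wild-type replicate 1 it was -0.53 (adjusted p = 0.0200).

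**Figure D2:**
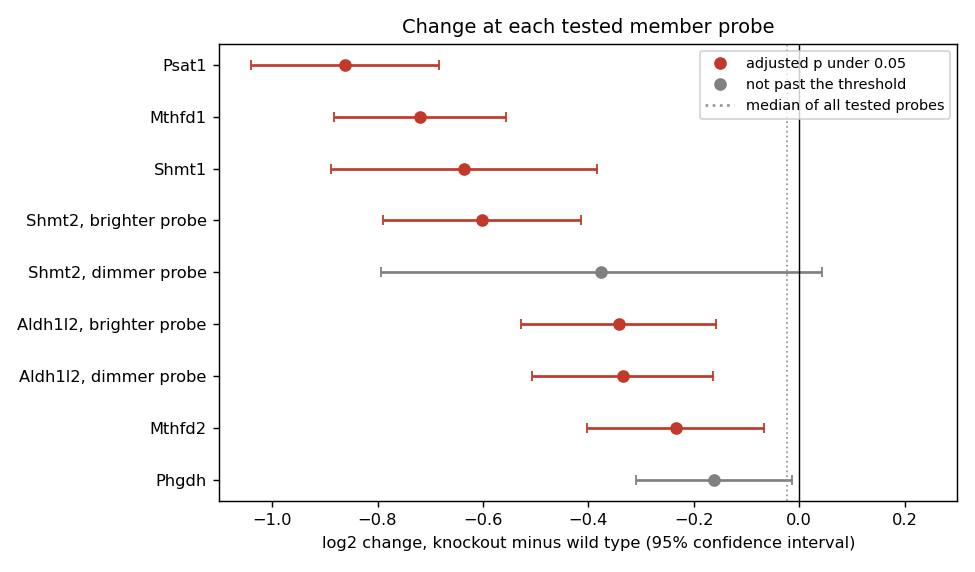
The horizontal axis gives the log2 change, knockout minus wild type, of each of the 9 tested member probes, with its 95% confidence interval from the limma fit, not adjusted for the number of probes. All 9 points lie below 0, from -0.86 for Psat1 to -0.16 for Phgdh, and the 2 grey points, Phgdh and the dimmer Shmt2 probe, did not pass the threshold.

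Of the enzymes that interconvert folate-bound carbon, the cytosolic Mthfd1, which carries 3 activities in 1 protein, gave 9.52, 9.27, 9.45 and 9.34 in knockout, against 10.17, 10.19, 10.10 and 10.01 in wild type. The groups were 0.50 apart at the nearest arrays. The log2 change was -0.72 (standard error 0.07, limma adjusted p = 1.73e-05), and it passed in each of 19 alternatives, between -0.77 and -0.68.

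Mthfd2, the mitochondrial dehydrogenase and cyclohydrolase, gave 8.68, 8.69, 8.92 and 8.86 in knockout, against 9.01, 9.14, 8.99 and 8.96 in wild type, with 0.04 between the nearest arrays. The log2 change was -0.23 (standard error 0.08, limma adjusted p = 0.0228). The call ended without knockout replicate 1 (adjusted p = 0.0633), without knockout replicate 2 (0.0636) and without wild-type replicate 2 (0.0668).

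Aldh1l2, the mitochondrial formyltetrahydrofolate dehydrogenase, fell at both of its probes. The brighter gave 9.35, 9.43, 9.53 and 9.61 in knockout, against 9.66, 9.83, 9.95 and 9.85 in wild type. The dimmer gave 7.71, 7.63, 7.67 and 7.85 in knockout, against 7.92, 8.16, 8.13 and 8.0 in wild type. Neither overlapped, and the log2 changes were -0.34 at both (standard errors 0.08 and 0.08, limma adjusted p = 0.00541 and 0.00413). The brighter passed in each of 19 alternatives and the dimmer in each of 18.

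Whether mitochondrial and cytosolic enzymes of the same steps changed by different amounts was tested on the difference of their log2 values per array. For Mthfd2 minus Mthfd1 this difference was -0.61 ± 0.16 in knockout and -1.09 ± 0.05 in wild type (SD, n = 4 each), and the 2 means were 0.49 apart. The 4 knockout arrays all lay above the 4 wild-type arrays, and the exact two-sided permutation p was 0.0286, the smallest that 4 against 4 can give. Adjusted over the 2 pairs that could be formed it was 0.0571, which misses the threshold. This is the lowest adjusted value possible unless both pairs separate completely, so the test could not pass on this pair alone. A smaller change of Mthfd2 was thus neither shown nor excluded. For Shmt2 minus Shmt1 the difference was 2.40 ± 0.23 in knockout and 2.36 ± 0.09 in wild type (SD, n = 4 each), and an exact permutation test, two-sided, gave p = 0.8. It spanned 2.18 to 2.71 in knockout and 2.29 to 2.50 in wild type, which does not show that the 2 genes changed by the same amount.

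The gene whose pattern was most like that of Psat1, the member of largest change, was Helb, a DNA helicase (Pearson r = 0.995 over the 8 arrays), followed by Uchl5, Ndufs6, Psmc2 and Wnt5a (r from 0.994 to 0.995). As the genotypes form separate groups, such an r mostly repeats their separation, and 795 of 8295 genes had one over 0.95.

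The remaining genes of the pathway moved in both directions. Over 7 lists of neighbouring steps, 61 of 96 genes were tested, of which 25 were lower, 12 higher and 24 did not pass, against 30.7% lower and 26.9% higher among all genes.

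**Figure D3:**
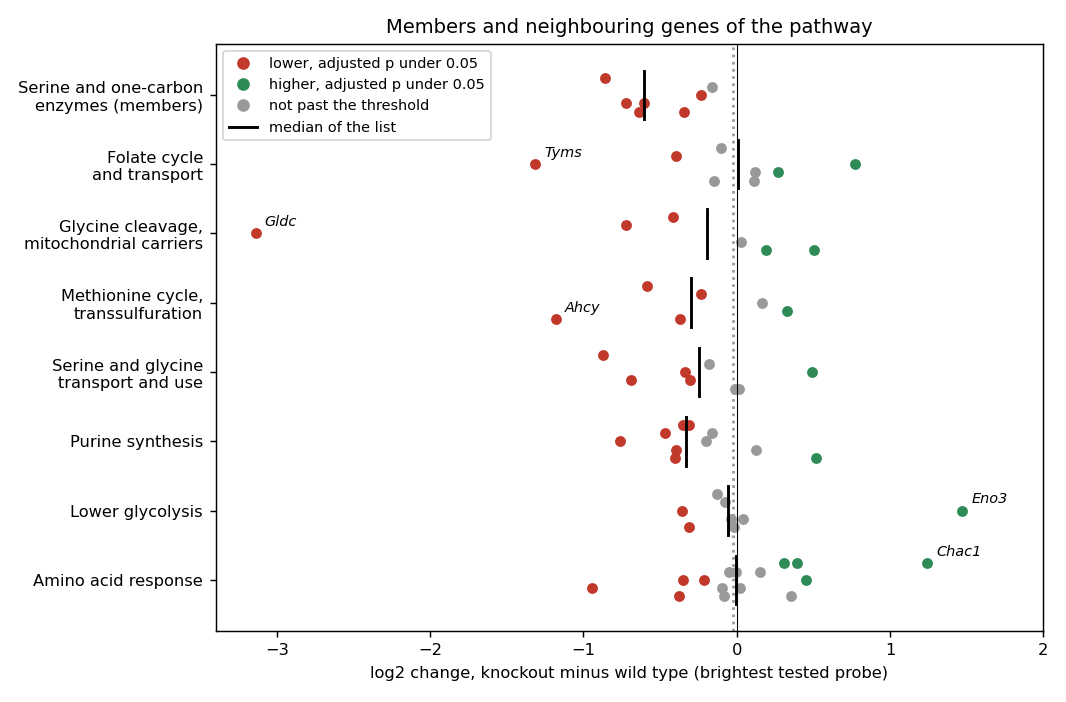
Each point is 1 tested gene at its brightest probe, placed by its log2 change, knockout minus wild type, on the horizontal axis. Rows are the members and 7 lists of neighbouring genes, the black bar is the median of each row and the dotted line the median of all genes. The members have a median of -0.60, and the medians of the other rows lie between -0.33 and 0.01. Genes that changed by more than 1 on the log2 scale are named, and Gldc, at -3.14, lies farthest from 0.

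The largest change next to the members was in the glycine cleavage system, which breaks glycine down in mitochondria and hands its carbon to folate. Gldc, its glycine decarboxylase, gave 4.95, 5.05, 5.03 and 5.03 in knockout, against 8.10, 8.27, 8.08 and 8.17 in wild type. It was not above background on any knockout array, so it was at least 5.15-fold lower there (limma adjusted p = 1.82e-10), the bound being the wild-type mean against the lowest detected value of each knockout array. As only wild-type arrays carried it past the filter, it had to differ. The fitted log2 change of -3.14 depended on the treatment of background and ranged from -6.75 to -2.26 over the alternatives. Of the other proteins of this system, named outside the rule after their values were seen, Amt was higher by 0.19 on the log2 scale (adjusted p = 0.0471) although its groups overlapped and it was above background on 3 knockout arrays and 1 wild-type array, Dld differed by 0.03 with overlapping groups (adjusted p = 0.926), and Gcsh was not above background.

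Carriers that supply serine and glycine changed as well. Sfxn1, the mitochondrial serine carrier, gave 11.90, 11.91, 11.83 and 11.83 in knockout, against 12.63, 12.59, 12.60 and 12.54 in wild type, a change of -0.72 with no overlap (standard error 0.06, limma adjusted p = 2.17e-06). Its relative Sfxn3 was lower by 1.33-fold, while Slc25a38, a mitochondrial glycine carrier, was 1.42-fold higher at its brightest probe and higher at all 3 of its probes. In that list of glycine cleavage and mitochondrial carriers, 3 of 6 tested genes were lower and 2 higher. At the plasma membrane, the glycine transporter Slc6a9 was 1.83-fold lower, the neutral amino acid transporter Slc1a4, which takes up serine, 1.61-fold lower and Slc38a2 1.26-fold lower, the last at 1 of its 2 tested probes. Srr, the serine racemase, was 1.41-fold higher. Of the 8 genes tested for serine and glycine transport and use, 4 were lower, 1 was higher and 3 did not pass.

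**Figure D4:**
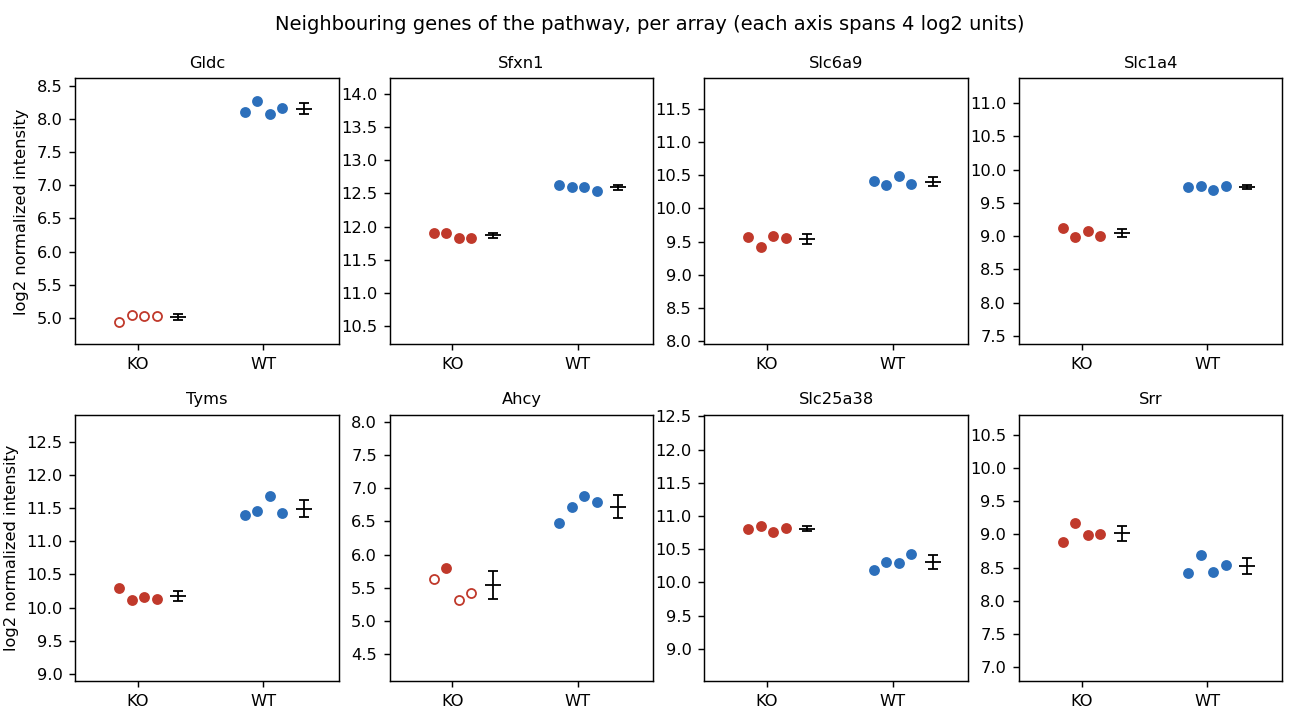
Each panel plots the log2 normalized intensity of 1 gene at its brightest tested probe on the 4 knockout (KO, red) and 4 wild-type (WT, blue) arrays, with the mean and SD beside each group and open points where the probe was not detected. Each vertical axis spans 4 log2 units and starts at its own level. Gldc is open on all 4 knockout arrays and lies between 8.08 and 8.27 in wild type, and Slc25a38 and Srr are the panels in which knockout lies above wild type.

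Among genes of the folate cycle and folate transport, 2 of 8 tested were lower and 2 higher, with a median of 0.01. Tyms, which makes thymidylate with a folate-bound carbon, was 2.49-fold lower at its brightest probe, with 10.29, 10.11, 10.16 and 10.14 in knockout, against 11.40, 11.46, 11.68 and 11.43 in wild type (limma adjusted p = 3.25e-07), and all 3 of its tested probes were lower. Mthfs was 1.32-fold lower. Mtfmt, the mitochondrial formyltransferase for the initiator tRNA, was 1.71-fold higher at its brightest probe, detected there on 4 knockout and 2 wild-type arrays, so that knockout arrays alone carried it past the filter, and higher at 2 of 3 probes. Fpgs, which adds glutamates to folate, was 1.20-fold higher at 1 of 3 probes, and its mean over probes did not pass (adjusted p = 0.259).

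Of 6 tested genes of the methionine cycle and transsulfuration, 4 were lower and 1 higher. Ahcy, which splits adenosylhomocysteine, was 2.26-fold lower (limma adjusted p = 1.72e-05), with 1 of 4 knockout and 4 of 4 wild-type arrays above background, and its relative Ahcyl1 was 1.26-fold higher. As wild-type arrays alone carried Ahcy past the filter, its fold and p are favoured by it. Among the alternatives its log2 change lay between -1.77 and -0.79 and passed in each. Mtap, the salvage enzyme methylthioadenosine phosphorylase, was 1.5-fold lower. Mtrr, the methionine synthase reductase, had overlapping groups and a log2 change of -0.37 (adjusted p = 0.0462). That call ended without knockout replicate 1, 2 or 3 and without wild-type replicate 2, 3 or 4 (adjusted p from 0.0649 to 0.12). It also ended with no background correction (0.0604), cyclic loess (0.0591), no filter (0.0829) and trend and robust spread (0.0516), and Mtrr was above background on 1 knockout and 3 wild-type arrays.

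Of 10 tested genes of purine synthesis, which takes up formyl units from folate, 6 were lower and 1 higher, with a median of -0.33. Adssl1, the muscle-type adenylosuccinate synthase, was 1.70-fold lower, Prps1 1.38-fold lower and Adsl 1.32-fold lower, while Impdh1 was 1.43-fold higher at 1 of 2 probes. The 2 genes whose products use formyl folate directly, named after their values were seen, were Gart, which fell by 0.31 on the log2 scale (adjusted p = 0.00397), and Atic, whose log2 difference was -0.16 (adjusted p = 0.0626).

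The genes of lower glycolysis, which act before and after the branch to serine, had a median of -0.05, with 2 of 8 lower and 1 higher. Tpi1 and Aldoa, which act before the branch, were 1.28-fold and 1.24-fold lower, and Eno3, the muscle enolase that acts after it, was 2.77-fold higher (limma adjusted p = 9.27e-08). Genes of the amino acid response, which the factor ATF4 is known to drive together with Psat1, Phgdh and Mthfd2, had a median of -0.01, with 4 of 15 lower and 4 higher. The log2 difference of Atf4 itself was -0.10 (adjusted p = 0.251). Of the list, Asns, Trib3 and Ddit3 had differences of -0.09, -0.01 and 0.35 (limma adjusted p = 0.292, 0.969 and 0.0642). These are RNA values, and ATF4 protein was not measured. In the same list Atf5, Slc3a2 and Slc7a5 were lower, at -0.35, -0.38 and -0.21 (limma adjusted p = 0.00157, 0.0124 and 0.0189). Slc3a2 was detected on 1 knockout and 4 wild-type arrays, so wild-type arrays alone carried it past the filter and its change and p are favoured by it. Sesn2 was higher, at 0.31 (adjusted p = 0.0207), with overlapping groups. All of these were named after their values were seen, and a part of ATF4 was not tested. Chac1 was 2.36-fold higher, with 11.13, 11.07, 11.03 and 10.95 in knockout, against 10.90, 9.61, 9.14 and 9.57 in wild type, where replicate 1 was the highest. Ddit4 was 1.92-fold lower, Eif4ebp1 1.37-fold higher and Vldlr 1.31-fold higher.

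Genes of other groups differed between the same arrays. All 21 tested genes of DNA replication were lower, against 30.7% of all genes tested. Their summed normalized intensities ran from 8585 to 9377 in knockout and from 25419 to 31225 in wild type. The largest changes among them were in Tk1 (5.41-fold), Mcm6 (4.88-fold), Lig1 (4.56-fold, lower at 3 of 4 tested probes) and Chaf1b (4.39-fold). Of the markers of adventitial fibroblasts, 13 of 15 were higher and 2 did not pass (summed 103004 to 107525 in knockout and 16271 to 17873 in wild type). Dcn was 109-fold, Igfbp6 31.0-fold and Serpinf1 30.4-fold higher. Of the smooth muscle markers 9 of 10 were higher, Cald1 by 2.47-fold, and 1 lower (summed 113159 to 118164 in knockout and 62148 to 69487 in wild type). Among all genes tested, 26.9% were higher. Lum, Actg2, Mylk and Myh11 were detected on the 4 knockout arrays and on 0 wild-type arrays, so their direction was fixed by the filter. They were at least 11.5-fold, 32.1-fold, 11.7-fold and 1.98-fold higher. The endothelial markers Pecam1, Cdh5, Vwf, Kdr, Tek and Tie1 and the leukocyte markers Ptprc, Adgre1, Itgam, Cd79a and Fcgr3 were all at background. The 3 endothelial genes tested summed to between 2794 and 3068 in knockout and between 2025 and 2310 in wild type, with Eng (1.35-fold) and Flt1 (1.54-fold) higher and Plvap 1.49-fold lower. The 3 leukocyte genes tested summed to between 307.8 and 321.6 in knockout and between 296.9 and 403.0 in wild type. Among them Cd14 was 3.34-fold lower. Lyz2 and Cd3e were detected on the 4 knockout arrays and on 0 wild-type arrays, so their direction was fixed by the filter. They were at least 2.40-fold and 1.87-fold higher. The part of these differences in the changes of the serine and one-carbon enzymes was not tested, and in such bulk RNA fewer cells of a type and less RNA per cell cannot be told apart.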

How the data were processed

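RNA isolated with a PicoPure kit was made into biotin-labelled cRNA for Illumina arrays, per the labels' protocols. The deposited table holds a background-subtracted intensity for each of 25697 probes on 8 arrays, and per the file headers a detection p-value for each. A second deposited table holds log2 values, quantile normalized by the authors as their equal sorted values show, and was used as an alternative only. The sources used here name no software for either.

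Normalization was by neqc (limma 3.58.1, R 4.3.3), with an offset of 16, quantiles and a log2 scale. The 12040 probes detected (p under 0.05) on 4 or more arrays entered lmFit and eBayes with genotype as the only term, and Benjamini-Hochberg adjustment ran over them, with a threshold of 0.05. A gene in a list was represented by its brightest tested probe. Probes were named by the platform annotation, updated through the GRCm38.p6 gene table: 23978 had 1 symbol, 0 several and 1719 none. The fit was tested on simulated data. Permutation tests were made with scipy 1.17.1 and figures with matplotlib 3.10.9.

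The members and lists were chosen with earlier results of these data known. Named are all member probes, up to 4 called genes of largest change per other list, the 5 genes most like the member of largest change, and the targeted and smooth muscle genes, with exceptions stated where they occur. Lists are described by counts and medians with no list test. Promoter patterns, read on both strands, were the CCAAT box, the GC box GGGCGG and the E-box CACGTG, then the ATF4-type forms TGATGNAA with TGATGCAA inside it and TGATGNNA around it, next the E2F forms TTTCCCGC besides TTTGGCGC and also TTTCGCGC, the cyclic AMP element TGACGTCA and its part TGACG, the NRF1 core TGCGCA, the C/EBP-ATF form TTGCNNCA with the shorter ATTGC, and the antioxidant element TGANNNNGC. Alternatives changed the background correction (none, or normexp with offset 50), the scaling (medians, or cyclic loess), the values (the deposited log2 table), the filter (none, or detection p under 0.01), the variance model (trend and robust; array weights; replicate block) and the summary of probes (their mean), and left out each array in turn.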

Additional observations from a re-analysis of the deposited data

Results flagged for a closer look

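Of 110 groups of 4 arrays examined, 4 held 1 array far from the other 3, where chance gives about 1 in 20. The groups were those of the member probes and of the called genes of largest change in each other list. Other genes named in the text were not examined. Slc38a2 was 11.27 in wild-type replicate 1, with the other 3 arrays from 11.07 to 11.10. Prps1 was 9.89 in knockout replicate 3, with the others from 9.96 to 9.97. Among the marker genes examined, Dcn was 14.24 in knockout replicate 4 (others from 14.10 to 14.12), and Cd14 was 8.39 in wild-type replicate 1 (others from 7.85 to 7.94). No group of a member probe was among them.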

How the results depend on the processing

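Over all alternatives, 0 member genes were called higher, and between 5 and 7 were called lower. Leaving out 1 array at a time gave 6 to 9 member probes and 5 to 7 member genes lower, 22 to 24 neighbouring genes lower and 11 to 12 higher, and 3337 to 3541 of all probes lower and 2886 to 3136 higher. Those fits changed the difference of Mthfd2 minus Mthfd1 to between 0.45 and 0.56 and that of Shmt2 minus Shmt1 to between -0.07 and 0.11, where the smallest exact p that 3 against 4 arrays can give is 0.0571. The difference of Shmt2 minus Shmt1, 0.03 and not called, changed sign with normexp at an offset of 50 (-0.12), with median scaling (-0.018) and with the deposited log2 table (-0.067), and its cause was not tested. The count of probes lower and higher was 3338 and 3442 with cyclic loess and 3776 and 2903 with median scaling. Same-numbered arrays of the 2 genotypes did not deviate together (correlations from -0.03 to 0.09 over probes, 2 of 4 knockout arrays matching best with their own number), so the numbers were not taken as pairs. With the replicate block, 6 member probes and 5 member genes were lower, Mthfd2 being lost (adjusted p = 0.0528), with 23 neighbouring genes lower and 11 higher and 3466 of all probes lower and 3075 higher. Dim probes limit Shmt1, Ahcy, Mtrr and Gldc, and Psph could not be read at all.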
